A study of Caenorhabditis elegans with 2 samples.

Results

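The regions described here are 1614 candidate binding regions of the nuclear hormone receptor NHR-28 that lie in promoters on the autosomes of the nematode Caenorhabditis elegans. They were chosen by the authors' deposited signal and by position. The pooled candidate list was ranked by signal and its first 5000 of 20876 regions were kept. Of these, 4022 were autosomal, and a region was a member if its summit lay from 1000 bp upstream to 500 bp downstream of the transcription start site (TSS) of a protein-coding gene, on the strand of that gene. The members were 40.1% of the autosomal regions kept (95% exact binomial interval 38.6 to 41.7). Chromatin immunoprecipitation sequencing (ChIP-seq) was done on whole L3 larvae of mixed sex of strain OP317, which carries unc-119(ed3) III and the transgene wgIs317, labelled as an insertion for nhr-28. There was 1 group, of 2 biological replicates, and both replicates carry the same alleles. The label for the antibody names nhr-28, while the description speaks of ChIP against the eGFP fusion. The labels name no other strain or treatment for comparison. A possible control experiment was not analysed here, so whether a region's signal depends on NHR-28 was not tested. Whole larvae pool all tissues, so signal from few cells and weak signal in many cannot be told apart.

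Nuclear hormone receptors are transcription factors that bind DNA through a zinc finger domain and, in many cases, respond to small lipophilic ligands. The family is greatly expanded in C. elegans, where members are known for roles in molting, fat metabolism and responses to diet and foreign compounds. A promoter is the stretch of DNA next to a TSS where transcription factors and RNA polymerase assemble. In C. elegans many transcripts are trans-spliced: their first bases are replaced by a short spliced leader, so the annotated start of many genes marks the mature transcript rather than the first base transcribed. Some genes also lie in operons and are transcribed from the promoter of an upstream gene. A position relative to an annotated TSS is therefore approximate.

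The sequences of the strongest members and of members that hold the words counted further on are shown first, to let the promoters be compared by eye. Each is the 201 bases centred on the summit, in build ce11 (WBcel235 reference sequence from RefSeq), written 5′ to 3′ on the strand of the gene whose TSS is nearest. Capitals mark the word CTGCGTC, the word AGTGCGC, the word CTTGCGC and the word GCGCCAGC on either strand. The first 3 are among the strongest members and hold none of these words in the stretch shown. The last is the member at the end of the list, rank 5000, shown for contrast.
rpl-3 (chrIII:3867460-3867660, plus strand): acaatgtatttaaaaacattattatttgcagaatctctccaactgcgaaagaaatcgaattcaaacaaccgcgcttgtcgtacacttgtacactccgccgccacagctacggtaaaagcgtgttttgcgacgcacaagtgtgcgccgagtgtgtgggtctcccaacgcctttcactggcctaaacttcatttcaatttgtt
cdc-48.1 (chrII:10563478-10563678, minus strand): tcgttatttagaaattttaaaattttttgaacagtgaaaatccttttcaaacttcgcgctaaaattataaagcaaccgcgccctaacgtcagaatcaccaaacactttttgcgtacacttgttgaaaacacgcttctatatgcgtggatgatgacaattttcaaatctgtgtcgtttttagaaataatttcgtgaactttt
rpl-15 with K11H12.8 (chrIV:654815-655015, minus strand): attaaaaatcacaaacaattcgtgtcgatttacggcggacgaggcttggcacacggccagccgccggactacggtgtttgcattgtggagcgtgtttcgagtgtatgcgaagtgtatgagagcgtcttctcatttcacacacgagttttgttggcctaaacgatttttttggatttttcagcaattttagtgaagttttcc
Y17G9B.5 with rpl-20 (chrIV:4749962-4750162, plus strand): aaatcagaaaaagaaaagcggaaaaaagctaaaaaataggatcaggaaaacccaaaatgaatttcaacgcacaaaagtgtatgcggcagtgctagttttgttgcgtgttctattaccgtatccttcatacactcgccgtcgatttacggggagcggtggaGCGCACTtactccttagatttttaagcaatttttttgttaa
eelo-2 (chrIV:17249811-17250011, plus strand): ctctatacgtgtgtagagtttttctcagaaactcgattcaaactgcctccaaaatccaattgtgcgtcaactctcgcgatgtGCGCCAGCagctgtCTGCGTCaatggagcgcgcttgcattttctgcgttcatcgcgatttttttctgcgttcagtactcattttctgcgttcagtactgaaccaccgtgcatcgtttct
sec-61.G with F32D8.13 (chrV:10897293-10897493, minus strand): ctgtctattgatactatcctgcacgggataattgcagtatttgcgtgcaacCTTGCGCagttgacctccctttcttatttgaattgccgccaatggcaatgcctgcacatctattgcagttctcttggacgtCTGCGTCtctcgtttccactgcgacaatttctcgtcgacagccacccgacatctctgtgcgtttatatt
rpl-12 with lin-54 (chrIV:13240621-13240821, minus strand): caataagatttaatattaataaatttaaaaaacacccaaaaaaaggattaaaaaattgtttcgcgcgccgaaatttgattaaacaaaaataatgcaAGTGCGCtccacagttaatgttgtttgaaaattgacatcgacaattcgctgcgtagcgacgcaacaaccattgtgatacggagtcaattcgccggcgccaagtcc
drr-2 with set-16 (chrIII:13643633-13643833, minus strand): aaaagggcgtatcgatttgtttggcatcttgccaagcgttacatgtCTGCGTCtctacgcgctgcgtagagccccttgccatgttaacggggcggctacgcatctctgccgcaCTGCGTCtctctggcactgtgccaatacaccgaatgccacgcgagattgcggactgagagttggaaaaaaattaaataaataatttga
ddp-1 with ttc-7 (chrIII:1859644-1859844, plus strand): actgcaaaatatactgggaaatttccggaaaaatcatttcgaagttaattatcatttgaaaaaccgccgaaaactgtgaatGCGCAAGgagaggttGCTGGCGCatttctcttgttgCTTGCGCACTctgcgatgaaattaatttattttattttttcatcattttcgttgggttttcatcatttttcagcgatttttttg
tomm-20 (chrV:12343650-12343850, minus strand): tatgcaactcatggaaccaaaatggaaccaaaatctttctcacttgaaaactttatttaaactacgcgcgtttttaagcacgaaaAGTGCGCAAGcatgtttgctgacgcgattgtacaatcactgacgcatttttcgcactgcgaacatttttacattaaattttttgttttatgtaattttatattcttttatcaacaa
ntl-11 (chrIV:15471527-15471727, minus strand): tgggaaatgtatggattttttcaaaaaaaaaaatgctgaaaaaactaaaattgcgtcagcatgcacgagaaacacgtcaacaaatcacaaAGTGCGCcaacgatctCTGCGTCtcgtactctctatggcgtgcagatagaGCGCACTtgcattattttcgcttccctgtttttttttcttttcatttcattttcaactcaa
H12C20.7 with nhr-68 (chrV:11572984-11573184, minus strand): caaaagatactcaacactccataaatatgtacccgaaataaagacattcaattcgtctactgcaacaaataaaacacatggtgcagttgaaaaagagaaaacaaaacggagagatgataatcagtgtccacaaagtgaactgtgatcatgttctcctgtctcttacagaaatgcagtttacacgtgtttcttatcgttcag
nhr-238 (chrV:1629417-1629617, minus strand): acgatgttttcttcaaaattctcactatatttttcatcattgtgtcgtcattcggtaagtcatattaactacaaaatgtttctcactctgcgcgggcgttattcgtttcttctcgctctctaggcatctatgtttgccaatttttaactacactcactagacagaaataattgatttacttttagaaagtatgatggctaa
asd-1 (chrIII:4198426-4198626, plus strand): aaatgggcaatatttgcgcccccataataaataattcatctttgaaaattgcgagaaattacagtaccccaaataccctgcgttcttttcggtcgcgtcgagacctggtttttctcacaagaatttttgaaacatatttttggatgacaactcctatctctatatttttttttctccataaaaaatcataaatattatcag
The windows of eelo-2, sec-61.G, ddp-1, tomm-20 and ntl-11 held more than 1 kind of word. In eelo-2 the centre of CTGCGTC lay at position -1 from the summit and that of GCGCCAGC at position -14, where negative positions are upstream on the strand shown. In rpl-12 the centre of AGTGCGC was at position -1, and in ddp-1 the centre of GCGCCAGC was at position 0. The drr-2 window held CTGCGTC at positions -51 and 16. In ddp-1 and tomm-20 a match of AGTGCGC overlapped a match of CTTGCGC on the other strand, so these matches are not independent. The windows of rpl-3, cdc-48.1, rpl-15, nhr-68 (nearest to H12C20.7), nhr-238 and asd-1 held none of the 4 words.

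Members also lay over 3 genes of SL2 RNA, the spliced leader RNA that is joined to transcripts of downstream operon genes. Of these, the members at sls-2.1 and sls-2.8 are shown, on the strand of the SL2 RNA gene, and the one at sls-2.4 is not printed. Capitals mark the longest stretch shared by the pair shown, 15 bases, which says nothing of the member that is not printed.
H41C03.3 with sls-2.1 (chrII:5844810-5845010, plus strand): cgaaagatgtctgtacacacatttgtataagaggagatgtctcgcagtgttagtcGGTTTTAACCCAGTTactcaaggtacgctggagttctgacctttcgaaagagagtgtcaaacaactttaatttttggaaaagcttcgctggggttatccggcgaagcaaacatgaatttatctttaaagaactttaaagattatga
Y75B8A.23 with sls-2.8 (chrIII:12250456-12250656, plus strand): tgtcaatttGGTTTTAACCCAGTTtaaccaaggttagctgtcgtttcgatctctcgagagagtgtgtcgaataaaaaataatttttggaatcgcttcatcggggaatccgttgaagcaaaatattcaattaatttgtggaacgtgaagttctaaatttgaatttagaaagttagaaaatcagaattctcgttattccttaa
The member listed under H41C03.3 (rank 14, pooled signal 92.81) lay over sls-2.1, with its summit at position -867 from the H41C03.3 TSS. The member listed under Y75B8A.23 (rank 60, pooled signal 46.3) lay over sls-2.8. These members were counted as promoter regions through the protein-coding neighbour, and in both the summit lay inside the small RNA gene. How reads from near-identical gene copies were placed is not given in the sources used here.

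The share of autosomal summits that lay in promoters was highest among the strongest regions. The rank decides membership, so these values are a description. The members are described in 5 bands of rank: the first band holds ranks 1 to 162, the length of the authors' final list, the second runs to rank 500, the third to 1000, the fourth to 2500 and the fifth to 5000. Among ranks 1 to 162, 83 of 127 autosomal regions were promoter regions (65.4%, 56.4 to 73.6). The share was 47.8% (129 of 270) for the second band and 43.2% (169 of 391) for the third band. It was 38.0% (453 of 1193) for the fourth band and 38.2% (780 of 2041) for the fifth band. Below the members, it was 36.1% for ranks beyond 5000 up to 10000 and 34.9% for those beyond 10000. The promoter windows themselves cover 32.9% of autosomal bases. Among the 5 bands of members, the fourth and the fifth, which together hold 1233 members, were closest to that cover. The 381 members of ranks 1 to 1000 were in the bands farthest above it.

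**Figure D1:**
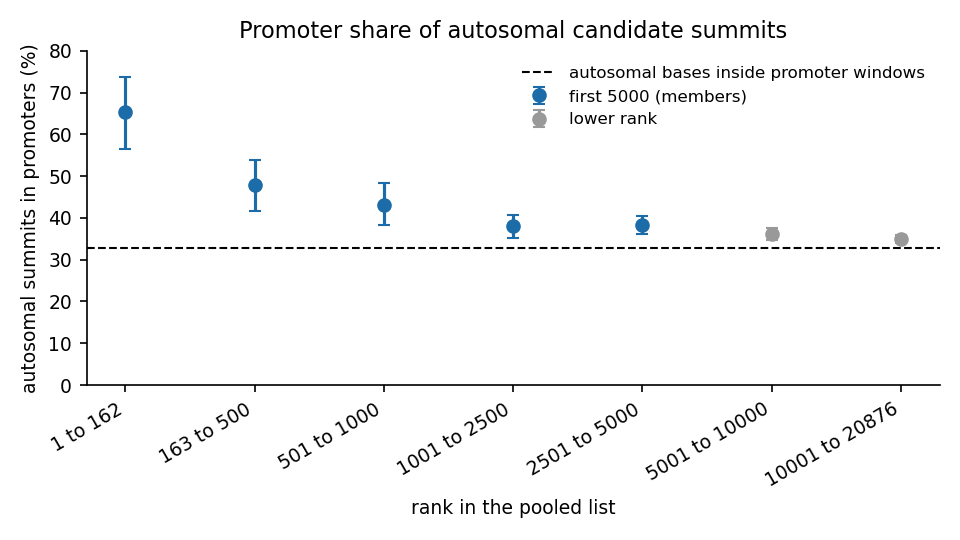
Share of autosomal candidate summits that lie in promoter windows (%, y axis) by rank in the pooled list (x axis). Points are shares, bars are 95% exact binomial intervals, and the dashed line is the 32.9% of autosomal bases inside the windows. The share falls from 65.4% in the first band to 38.2% in the fifth.

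The authors' q values followed the same order. The signal is the authors' own value per region, with no stated scale, and q is their false discovery estimate. Median q was 0.00592 for members of ranks 1 to 162, 0.0508 for the second band, 0.25 for the third band, 0.48 for the fourth band and 0.672 for the fifth band. Only 144 of the 1614 members (8.92%) had a q of at most 0.05, and none of these lay beyond rank 500. The lists are named by the authors as peaks and background, the input for their irreproducible discovery rate (IDR) procedure, which compares the ranks of replicates. On the final list that it gave there were 83 members (5.14%), beside 0.776% of all pooled candidates. Since both the members and the final list were drawn from the top of the same ranking, nothing is read from that difference. At the threshold, str-159 (rank 4997) and asd-1 (rank 5000) were the last members, and alkb-8 (rank 5004) and agl-1 (rank 5005) were the first promoter regions outside. All of them had a pooled signal of 15.68 and a q of 0.741.

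Ribosomal protein genes were at 7 of the 20 strongest members, the strongest pair included. The region with its summit at position -294 from the TSS of rpl-3, which encodes a protein of the large ribosomal subunit, had a pooled signal of 127.6 (rank 3), with 45.7 in replicate 1 and 81.8 in replicate 2. The region upstream of both Y17G9B.5 and rpl-20 (positions -178 and -284 from their TSSs) had a pooled signal of 121.2, with 31.6 in replicate 1 and 86.9 in replicate 2. That of rpl-15, at position -339, had 95.27, with 28.9 and 65.4 in replicates 1 and 2. These regions were among the first 32 of each replicate list, at ranks 18 to 32 in replicate 1 and 3 to 13 in replicate 2. Lower in the 20 strongest were rpl-35 (77.71), rpl-12 with the DREAM complex gene lin-54 (63.83), rps-19 with the 53BP1-like gene hsr-9 (59.8) and rps-15 with F36A2.9 (56.29). In each pair the summit was upstream of both genes.

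The other members of the 20 strongest were at genes of several kinds. The region at position -171 from cdc-48.1, whose product is an ATPase that extracts ubiquitinated proteins, had a pooled signal of 114.1, with 45.5 in replicate 1 and 65.6 in replicate 2. That of sec-61.G, for a subunit of the channel that moves proteins into the endoplasmic reticulum, had 66.42 (23.0 and 45.5 in replicates 1 and 2). That of iff-2, for translation factor eIF5A, had 60.61 (22 and 37.2). That of drr-2, an eIF4H-like gene that shares its region with the histone methyltransferase gene set-16, had 60.58 (28 and 35.7). The region at ddp-1, for a small protein of mitochondrial import, had 60.13 (16.9 and 40.6), and that of eif-3.C, for a subunit of translation factor eIF3, had 56.06 (15 and 40.6). Each list has a scale of its own, so these values are compared within a list only. By rank, the drr-2 region was at 34 in replicate 1 and 47 in replicate 2, and that of eif-3.C was at 165 and 36.

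Also among the 20 strongest were ints-4, for a subunit of the Integrator complex (62.52, summit 34 bp downstream of the TSS), and his-37, for histone H4 (53.17). They also included cox-5A, for a subunit of cytochrome c oxidase (52.46), the protease gene tasp-1 (83.89), tos-1 (59.16) and eelo-2 (66.9). The cox-5A region was at rank 310 in replicate 1 and 48 in replicate 2, the widest gap among the 20. All 20 were matched in both replicate lists and had a q of 0.00592, and in 19 the summit was upstream of the nearest TSS.

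By chromosome, the strongest 2 members were cdc-48.1 and H41C03.3 on II, rpl-3 and tasp-1 on III, Y17G9B.5 and rpl-15 on IV, sec-61.G and tos-1 on V, and ints-4 and hsr-9 on I. The highest signal was lower on I (62.52) and V (66.42) than on II (114.1), III (127.6) and IV (121.2). Median signals were between 18.0 and 18.5 on every autosome. Chromosome V held 24.8% of the members with 29.0% of the autosomal protein-coding genes and 25.3% of the autosomal sequence, and III held 18.2% with 15.3% and 16.7%. The share of autosomal summits in promoters was between 35.1% on IV and 44.3% on V. The summit was in the central 50% of its chromosome for 58.2% of members, beside 55.7% of all autosomal protein-coding genes by TSS. The gene nhr-28 itself is on X, outside the autosomal set.

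Members further down the ranking had weaker and less even values. The strongest of the second band were rab-18, which shares its region with kbp-4 and par-2, metr-1 and Y62F5A.9, with pooled signals of 32.7, 32.28 and 32.24. Those of the third band were glb-19, nhr-179 and atp-1, with 24.42, 24.4 and 24.37. Those of the fourth band were srg-58, pqe-1 and nhr-146, with 21.31, 21.3 and 21.29, and those of the fifth band were T26E4.2, uba-1 and mac-1, each with 18.05. Of these 12 regions, metr-1, srg-58, uba-1 and mac-1 had no match in the replicate 1 list.

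Support from the replicate lists fell with rank. A member was matched when a region of the replicate's list of 30000 overlapped it by at least 1 bp. Both lists matched 1113 of 1614 members (69.0%, 66.6 to 71.2), beside 36.5% of all pooled candidates. The pooled list was made from the same reads and the members were chosen for high pooled signal, so this share is not independent support. Replicate 2 matched 1523 members (94.4%) and replicate 1 matched 1201 (74.4%). Members matched in replicate 2 only numbered 410, in replicate 1 only 88 and in neither 3. The share matched in both was all 83 in the first band, the members of the final list, which the deposited file list gives as derived from the pooled and both replicate lists. It was 90.7% for the second band and 79.3% for the third band. It was 69.3% for the fourth band, 59.6% for the fifth band and 28.6% for the 4595 autosomal promoter regions of lower rank.

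**Figure D2:**
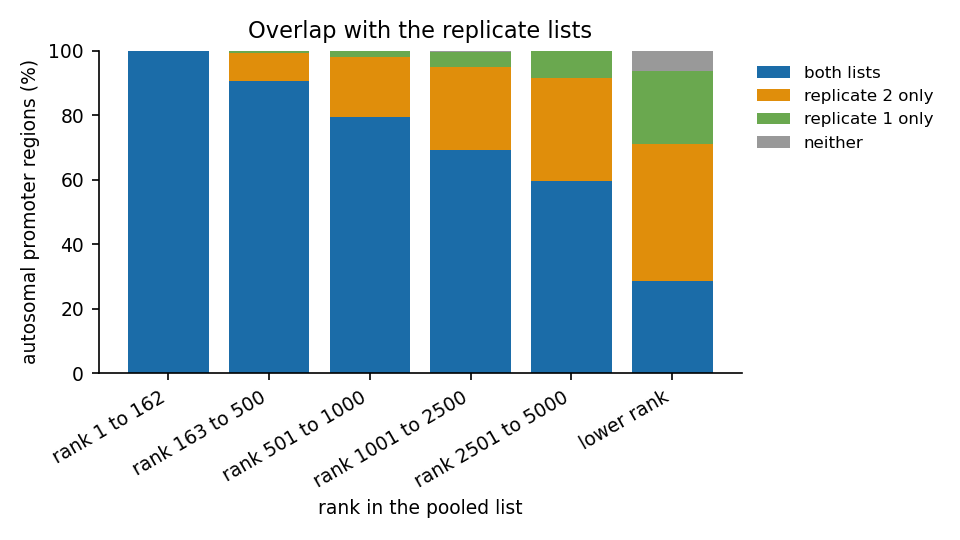
Share of autosomal promoter regions (%, y axis) matched in both replicate lists, in 1 of them or in neither, by rank in the pooled list (x axis). The share matched in both falls from all 83 in the first band to 59.6% in the fifth, and most members matched in a single list are matched in replicate 2.

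Several members rested on 1 replicate. At metr-1 (the methionine synthase gene, rank 168) replicate 2 had a region of signal 32.0 at its rank 58 and replicate 1 had none. F48A11.4 (rank 289) and snf-11 (rank 332) were also matched in replicate 2 only, at its ranks 391 and 185. Y57A10A.24 (rank 309), ZK688.11 (rank 635) and H20J04.4 (rank 695) were matched in replicate 1 only, at its ranks 555, 126 and 441. Those in neither list were lin-3, which encodes an EGF-like ligand (rank 1907), ctr-9 with dars-1 (rank 4619) and trm-2A (rank 4812). Among members in both lists, osta-3 had rank 29922 in replicate 1 and 546 in replicate 2, ceh-8 29633 and 997, and str-130 29627 and 1002. In the other direction, ral-1 had rank 747 in replicate 1 and 30000 in replicate 2, F59B1.8 561 and 29404, and fbxb-76 1108 and 29685. None of these 15 members was on the final list.

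Across the 1113 members in both lists, the signals of the replicates had a Spearman correlation of 0.05 and, on the log2 scale, a Pearson correlation of 0.27. Across the 83 members of the final list the values were 0.2 and 0.41. Within the second to the fifth band, Spearman values were -0.61, -0.64, -0.49 and -0.34. These are correlations across regions chosen, and placed in a band, by the pooled signal, and regions are not independent replicates. When the 5000 strongest regions were taken from a single replicate instead, 698 of the 1790 genes with a member (39.0%) were also hit in replicate 1, which is 39.9% of the 1749 genes of that list. In replicate 2 it was 1065 genes, 59.5% of the genes with a member and 62.7% of the 1699 genes of that list. The remaining genes with a member had no region among the 5000 strongest of that replicate.

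**Figure D3:**
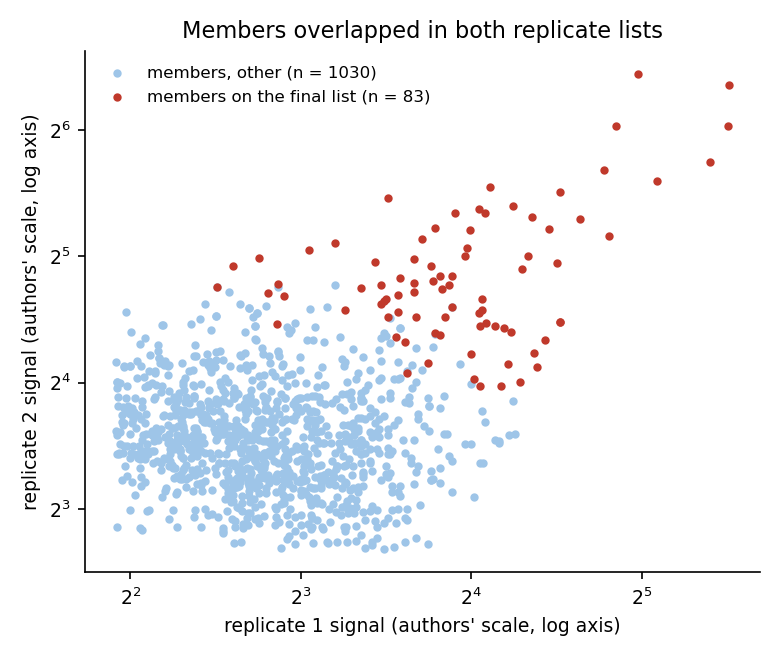
Signal in replicate 1 (x axis) against replicate 2 (y axis) for the 1113 members matched in both lists, each in the authors' units on a log axis. Each point is a member, and red points are the 83 on the final list, which lie above or to the right of most others. Among the other 1030, the Spearman values within a band were negative, from -0.64 to -0.34.

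Summits of the strongest members lay mostly close to the TSS and upstream of it. The median position relative to the nearest TSS was -185 bp (95% interval -213 to -162), and 69.3% of members (67.0 to 71.5) were upstream. If summits were spread evenly over the promoter windows, 61.9% would be upstream. From 1 to 400 bp upstream there were 69.9% of the members of ranks 1 to 162 (58.8 to 79.5), 54.3% of the second band and 37.9% of the third band. The value was 35.4% for ranks beyond 1000 up to 5000 (32.7 to 38.1), beside 28.9% of the bases of the windows and 31.7% of promoter regions of lower rank. Downstream of the TSS there were 9.64% of ranks 1 to 162 (4.25 to 18.1) and 33.0% of ranks beyond 1000 up to 5000, beside 38.1% of bases. The single 100 bp bin with most summits of ranks 1 to 162 was 200 to 100 bp upstream, with 21 of 83 (25.3%), where the bases of the windows gave 7.43%.

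**Figure D4:**
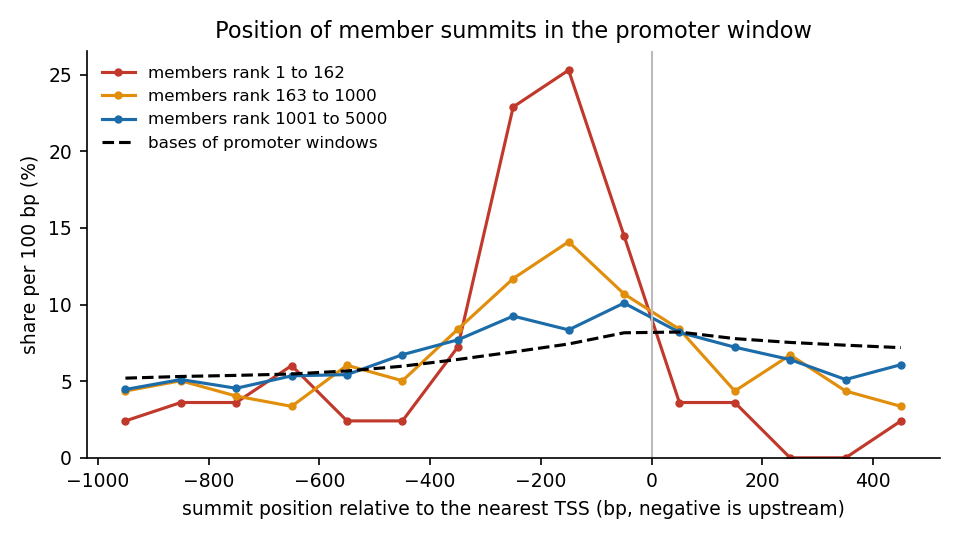
Share of summits per 100 bp (%, y axis) by position relative to the nearest TSS (bp, x axis, negative is upstream). Coloured lines are members of 3 rank bands and the dashed line is the bases of all autosomal promoter windows. Ranks 1 to 162 reach 25.3% in the bin from 200 to 100 bp upstream, while the members beyond rank 1000 stay closer to the dashed line.

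Among the strongest members, 32.5% were shared by genes that point away from each other. A member counted as divergent when it was upstream of genes on both strands. This held for 185 members (11.5%, 9.95 to 13.1), beside 5.6% of the bases of the promoter windows. It held for 27 of 83 members of ranks 1 to 162 (32.5%, 22.6 to 43.7), 21.7% of the second band, 11.2% of the third band and 9.0% of ranks beyond 1000 up to 5000. Promoter regions of lower rank gave 6.35%. The summit was in the window of 1 gene for 1344 members, of 2 genes for 254 and of 3 genes for 16, so a gene named at a shared region is not shown to be the one regulated. The summit lay outside annotated gene bodies for 46.9% of members and for 79.5% of ranks 1 to 162, in an exon for 25.7% of members and in an intron for 27.4%.

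In all, 1790 of 17242 autosomal protein-coding genes had a member in their promoter window (10.4%), of which 1688 had 1, 94 had 2 and 8 had 3. With a member of ranks 1 to 1000 there were 472 genes (2.74%). The genes with 3 members, taken in order of their strongest one, began with wdr-23, drap-1 and nurf-1. The wdr-23 gene, known as a repressor of the stress response factor SKN-1, had members of pooled signal 33.69, 23.43 and 17.72 (ranks 148, 610 and 2774), each 83 to 186 bp downstream of a TSS. The drap-1 members had 29.02, 20.53 and 17.01, of which the first and last overlap the same region of each replicate list, and those of nurf-1, for a chromatin remodelling subunit, had 28.35, 18.35 and 17.76. Genes with several annotated starts have a wider total window. Among the members, 36 overlapped another member.

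Gene groups were compared with those shares of all genes. The 29 groups were formed by gene name and chosen with earlier results of these data known, and 17 of them had a share above 10.4%. A value beside a gene of a group is the pooled signal of its strongest member. Of the 79 ribosomal protein genes, 33 had a member (41.8%, 30.8 to 53.4), in 31 distinct regions, and 22 had one of ranks 1 to 1000 (27.8%). The 11 further ribosomal genes with a weaker member only included rps-5 (20.6), rpl-23 (20.3) and rps-11 (20). Summits were upstream of the TSS in 32 of the 33, by 70 bp (rpl-12) to 696 bp (rpl-43), and rla-1 was the exception at 413 bp downstream. With the 5000 strongest regions of replicate 2 alone, 26 ribosomal genes were hit, and with those of replicate 1 alone, 32.

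Of the groups for translation factors, aminoacyl-tRNA synthetases, chaperones and the proteasome, none had an interval that excluded the 10.4% of all genes. Of 39 translation factor genes, 8 had a member (20.5%, 9.3 to 36.5), led by iff-2, eif-3.C and eef-2 (pooled signals 60.6, 56.1 and 43.1). Of the 8 genes of the CCT chaperonin, which folds actin and tubulin, 3 had one (37.5%, 8.52 to 75.5), namely cct-1 with 44.7, cct-8 with 28.5 and cct-6 with 21.4. Of 19 heat shock protein genes, 5 had one (26.3%, 9.15 to 51.2), led by hsp-90 (44.1), hsp-110 (39.7) and hsp-1 (30.9). Of 31 aminoacyl-tRNA synthetase genes there were 5 (16.1%, 5.45 to 33.7), led by fars-2 (24.4), aars-2 (19.9) and dars-2 (17.6). Of 33 proteasome genes there were 3, rpn-3 (39.7), pbs-1 (30.2) and pas-5 (17.3), which is 9.09% (1.92 to 24.3). The regions at hsp-110 and rpn-3 are 1 and the same. Without replicate 2, the proteasome count was 7 (21.2%, above the 10.1% of all genes in that setting).

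Ubiquitin enzymes and RAB GTPases, the switches of vesicle traffic, had shares above that of all genes, which for RAB GTPases and the respiratory chain did not hold in every alternative. The ubiquitin enzymes were grouped by name only, which does not show that each acts on ubiquitin. That group had 8 of 23 genes (34.8%, 16.4 to 57.3), led by ubc-25 (33.8), ubc-12 (25.7) and ubc-9 (21.6). Its count was 5 without replicate 1 and 4 without replicate 2. RAB GTPases had 6 of 17 (35.3%, 14.2 to 61.7), led by rab-7 (38.4), rab-18 (32.7) and rab-5 (19.3), and the count was 5 without replicate 1. It was 1 of 17 (5.88%) without replicate 2, below the 10.1% of all genes in that setting. It was also 1 of 17 with a window from 500 bp upstream to 200 bp downstream, below the 6.26% of all genes there. Nuclear pore genes had 6 of 26 (23.1%, 8.97 to 43.6), led by npp-14 (31), npp-3 (28.5) and npp-19 (27.8), with 5 without either replicate. Respiratory chain genes had 10 of 63 (15.9%, 7.88 to 27.3), led by cox-5A (52.5), ndua-8 (26.8) and atp-1 (24.4), and 4 without replicate 2 (6.35%, below the 10.1% of all genes). The atp-1 region was at rank 22347 in replicate 1 and 326 in replicate 2.

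Nuclear hormone receptor genes, the family of NHR-28 itself, had a member at 38 of 246 (15.4%, 11.2 to 20.6), each in its own region. With ranks 1 to 1000 it was 12 of 246 (4.88%), beside 2.74% of all genes. The strongest were nhr-238 (41.4, at position -85), nhr-68 (39.8, at -356) and nhr-49 (27.7, at -291). NHR-68 acts in the response to low vitamin B12 and NHR-49 in fat metabolism. The nhr-68 and nhr-49 regions had ranks 924 and 1671 in replicate 1 and ranks 65 and 535 in replicate 2. The nhr-68 region was also upstream of H12C20.7, at position -94. The gene nhr-23, which is needed for molting, had a member of signal 21.6, at position 327, and nhr-80, a partner of NHR-49 in fat desaturation, had one of 17.7. The count was 29 without replicate 1 (11.8%, beside 9.85% of all genes in that setting). It was 31 without replicate 2 (12.6%, beside 10.1% of all genes). Some of the genes lie close together, so they are not independent loci. The regions at nhr-179, nhr-110, nhr-237 and nhr-238 all lay between bases 1618809 and 1629686 of chromosome V.

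Chemoreceptor, F-box and C-type lectin genes had shares below that of all genes, while the intervals of the detoxification groups included it. UDP-glucuronosyltransferases, which conjugate small lipophilic compounds, had 8 of 63 (12.7%, 5.65 to 23.5), led by ugt-30 (25.9), ugt-21 (22.5) and ugt-9 with ugt-11 (21.9), which share a region. Cytochrome P450 genes had 5 of 67 (7.46%, 2.47 to 16.6), led by cyp-33B1 (24.5), cyp-33A1 (22.9) and cyp-29A3 (18.1). Glutathione S-transferases had 2 of 41 (4.88%, 0.596 to 16.5), gst-27 (18.8) and gst-7 (16.7). Chemoreceptor genes had 64 of 1277 (5.01%, 3.88 to 6.36), led by srh-2 (42.1), srw-67 (27.8) and srv-1 (27). F-box genes had 11 of 305 (3.61%, 1.81 to 6.36), led by fbxb-85 (43.7), fbxb-72 (38.3) and fbxa-125 (25.6). C-type lectins had 13 of 237 (5.49%, 2.95 to 9.2), led by clec-170 (24), clec-124 (21.5) and clec-57 (21.1). Chemoreceptor and F-box genes often lie in tandem clusters of similar copies, and how reads were placed among copies is not given in the sources used here. Without replicate 1, cytochrome P450 genes counted 8 (11.9%) and glutathione S-transferases 5 (12.2%), both above the 9.85% of all genes in that setting, so their direction turned. UDP-glucuronosyltransferases counted 4 (6.35%) with regions matched in both replicates only, below the 7.35% of all genes there, and 4 with the narrower window.

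**Figure D5:**
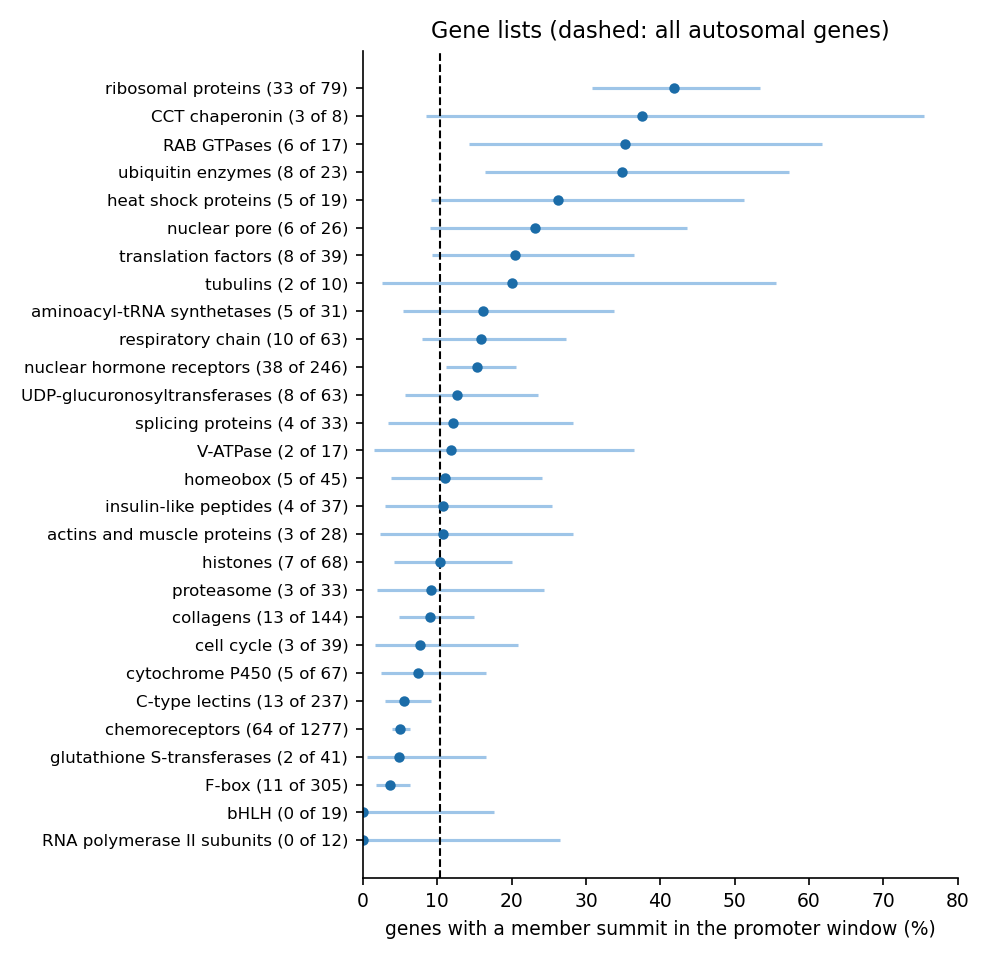
Share of the genes of each group that have a member in their promoter window (%, x axis) for groups of at least 8 genes. Points are shares with 95% exact binomial intervals, counts stand beside the names, and the dashed line is the 10.4% of all autosomal protein-coding genes. Ribosomal protein genes are highest at 41.8%, and chemoreceptor, F-box and C-type lectin genes lie below the line.

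The remaining groups had shares near that of all genes or too few genes to tell. Collagens had 13 of 144 (led by col-63 32.8, col-20 24 and col-76 23.8) and histones 7 of 68 (his-37 53.2, his-42 30.2, his-67 with his-68 24.1). Tubulins had 2 of 10 (tba-2 49.8, tba-7 19.9), splicing proteins 4 of 33 (snr-4 25.3, prp-40 16.6, prp-9 16.1) and V-ATPase 2 of 17 (vha-2 18.4, vha-19 16.2). Homeobox genes had 5 of 45 (ceh-16 20.1, ceh-8 19.7, ceh-38 18), insulin-like peptides 4 of 37 (ins-35 19.8, ins-18 19.3, ins-17 16.6) and actins and muscle proteins 3 of 28 (pat-6 20.5, pat-12 19.4, pat-2 17.5). Cell cycle genes, grouped by name only, which does not show that each acts in the cell cycle, had 3 of 39 (orc-3 16.9, orc-1 16.7, cdk-12 16.5). None was hit of 12 RNA polymerase II subunit genes (up to 26.5% by the exact interval), 19 bHLH genes (up to 17.6%) and 1 autosomal vitellogenin gene. With 1 replicate alone, 1 bHLH gene was hit in either list and 1 RNA polymerase II gene in replicate 2, histones were 2, insulin-like peptides 0 and cell cycle genes 1 without replicate 2, and splicing proteins were 2 without replicate 1 and 10 without replicate 2. Without replicate 1, collagens were 15 (10.4%, above the 9.85% of all genes in that setting), actins and muscle proteins 2 (7.14%, below it) and homeobox genes 3 (6.67%, below it). Of the 9 groups of this kind with a hit gene, tubulins alone lay on the same side of the share of all genes in each setting of regions, replicates and window. Some of these counts of a few genes, such as those of histones and splicing proteins, varied by more than 1.5 times between lists. Those of tubulins and V-ATPase stayed at 2 with either replicate left out.

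Small RNA genes lay within 170 bp of the summit of some members. There were 17 members at snoRNA genes (1.05%), 11 at snRNA genes (0.682%, spliced leader RNA genes included), 17 at tRNA genes (1.05%), 2 at miRNA genes and 0 at rRNA genes. The members at cmtr-1 (ranks 66 and 119) overlap and were counted at the same snoRNA gene. The same holds at snr-4 (ranks 423 and 2526, an snRNA gene) and C06G4.4 (ranks 570 and 3553, a tRNA gene). The counts are therefore of members, not of distinct small RNA genes. For promoter regions of lower rank the shares were 0.413%, 0.152% and 0.348% for snoRNA, snRNA and tRNA genes. For miRNA genes the share was 0.124% of members (0.015 to 0.447) and 0.174% of promoter regions of lower rank (0.0752 to 0.343). The strongest after sls-2.1 was the region at egg-5 over sls-2.4 (rank 53, signal 48.8). Some of these members were counted in the gene groups above through the protein-coding neighbour. Examples are pas-5 (summit at position -788) and gst-27, both at snoRNA genes, and snr-4, at an snRNA gene. The 381 members of ranks 1 to 1000 were compared with each other, and only 4 shared a run of 30 identical bases with a region they did not overlap. These were H41C03.3, egg-5, F38E11.9 and F42C5.9, each at an snRNA gene. Members beyond rank 1000 were not part of that comparison.

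GC content was higher in the first 3 bands than in the others. The median GC content of the members' 340 bp was 33.8% (33.5 to 34.1), and that of windows of the same length centred 185 bp upstream of every autosomal protein-coding gene was 33.5%. By band the median was 37.1% for ranks 1 to 162, 35.9% for the second band, 35.0% for the third band, 33.2% for the fourth band and 33.8% for the fifth band. GC content can affect how well a fragment is amplified and sequenced, and its part in these ranks was not tested.

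The word CTGCGTC was held by 95 members (5.89%, 4.79 to 7.15), beside 5.21% of the windows at all autosomal promoters. Promoter regions of lower rank held it in 3.83% (3.29 to 4.43), and the other autosomal regions of the first 5000 in 4.24%. Both strands were searched in this and in every other word. By band it was held by 14.5% of ranks 1 to 162 (12 of 83, 7.7 to 23.9), 11.6% of the second band (15 of 129, 6.66 to 18.5), 6.51% of the third band, 4.19% of the fourth band and 4.87% of the fifth band. In the stretches of the same length on either side of the members of ranks 1 to 1000 it was held by 4.46% and 2.62%, against 9.97% in the members. Of its 69 occurrences within 510 bp of those summits, 30 lay within 85 bp (43.5%), and 22.4% did so for ranks beyond 1000 up to 5000. The word was chosen with earlier results of these data known, and it is rich in G and C, bases that were more frequent in the first 3 bands than in the others.

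The half-site AGGTCA, to which many nuclear receptors bind, was held by 8.43% of members (7.12 to 9.89). All autosomal promoter windows held it in 9.48% and promoter regions of lower rank in 8.29%. It was held by 9.64% of ranks 1 to 162 and 7.87% of ranks 1 to 1000, and the shares of the bands ran from 5.43% to 9.64%. The other words searched were held by members and by all promoter windows, in that order, as follows. GAGAGA had 21.2% and 22.9%, TATAAA 40.3% and 42.6%, and TGATAA, the core bound by intestinal GATA factors, 28.6% and 33.5%. CACGTG had 5.7% and 6.48%, GTAAACA, a forkhead site, 4.83% and 5.61%, and GGGCGG 7.31% and 8.46%. TTCTAGAA had 2.66% and 2.48%, TGACGTCA 1.92% and 2.01%, and a run of 8 T 39.1% and 38.1%. TTTCAG, which also ends C. elegans introns, had 54.9% and 46.5%, but promoter regions of lower rank had 55.6% and the flanks of the members 56.4% and 57.4%. In the first and the second band, GAGAGA was held by 28.9% (19.5 to 39.9) and 31.8% (23.9 to 40.6), and by 17.8% to 20.1% in the bands below. TATAAA was held by 33.7% (23.7 to 44.9) and 30.2% (22.5 to 38.9) in the first and the second band, and by 40.4% to 44.4% below. TGATAA was held by 18.1% (10.5 to 28) and 25.6% (18.3 to 34), and by 28.5% to 34.3% below. GGGCGG was held by 10.8% of ranks 1 to 1000 (7.83 to 14.3), above the share of all promoter windows, and by 6.24% of the ranks beyond 1000 (4.96 to 7.74), below it. Its highest share was 13% (8.34 to 19) in the third band, and the flanks of ranks 1 to 1000 held it in 7.61% and 7.35%. TGACGTCA was held by 8 of 129 members of the second band (6.2%, 2.72 to 11.9) and by 1.1% to 1.92% of the other bands. Ranks 1 to 1000 held it in 2.89% (1.45 to 5.11) and their flanks in 0.525% and 0.787%. Over the bands, CACGTG ran from 4.86% to 7.75%, GTAAACA from 4.49% to 6.2%, TTCTAGAA from 0% to 3.08% and TTTCAG from 48.2% to 57.6%. The run of 8 T was held by 28.9% of the first band (19.5 to 39.9) and by 38.0% to 41.1% of the others. The bands, shown for 12 words with CTGCGTC included and in part for words chosen later, hold as few as 83 members. No test was made. No match says only that these letters are not in the window.

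Compared with the 2408 autosomal regions of the first 5000 outside promoters, members were on the final list in 5.14% (4.12 to 6.34) against 1.83% (1.33 to 2.45), and matched in both replicates in 69.0% against 63.2%. The highest pooled signal outside promoters was 73.6, and 7 members were above it. These differences were not tested, because regions of 1 pooled list are not replicates. In the 323 promoter regions of X among the first 5000, 3.41% were divergent, beside 11.5% of the members, and 4.95% held CTGCGTC. The divergent share of promoter window bases (5.6%) was counted on the autosomes only. It was not counted on X, so the divergent shares of X regions and members have no common base line. The summit was in the window of 2 genes for 5.26% of the X regions and 15.7% of the members.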

How the data were processed

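ChIP-seq of eGFP-NHR-28 was done on whole L3 larvae in 2 biological replicates of 1 group, from separate biosamples per the labels, which give a size range of 150 to 350. The authors' deposited candidate lists (30000 regions per replicate and 20876 pooled, called against a control per the deposited file list) and final IDR list (162) in build ce11 were used, and the ce10 lists were not. Regions are 340 bp wide, and 350 bp in replicate 1. Its signal is as the authors deposited it, on an unstated scale, and was used only within a list. The deposited −log10 q value was converted to q. No source used here names the aligner, the peak caller or the IDR threshold. Sequencing depth is unknown because no read counts were given, and the 95% exact binomial (Clopper-Pearson) intervals cover only the counting of regions or genes.

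Summits were placed with Ensembl release 115 (WBcel235, the assembly of ce11) at 25199 autosomal protein-coding start sites, and sequence was read from RefSeq. All region ends lay inside the chromosomes. Overlap meant at least 1 bp. Coordinates count from 1. The members, gene lists, words and the rule for named genes were chosen with earlier results of these data known. That rule names the 20 strongest members, the strongest 2 of each autosome and 3 of each rank band, those least alike or unmatched in the replicates, 3 genes per list, those at the threshold and the genes with most members. Other genes shown, and the words AGTGCGC with CTTGCGC and with GCGCCAGC, were chosen after the sequences or values were seen. No test was made, because the series has 1 group and regions are not replicates. The position, overlap and word counts were tested on simulated data. Python 3.11.15, pandas 2.3.3, numpy 2.4.6 and scipy 1.17.1 were used. Alternatives were other list lengths, single replicates, a narrower window, 1 TSS per gene, a stricter overlap, the 100 bp around the summit and, chosen after the data were seen, regions matched in both replicates only.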

Additional observations from a re-analysis of the deposited data

How the results depend on the processing

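With the 2500 strongest regions there were 834 members, 42.1% of autosomal summits lay in promoters, 5.61% of genes were hit, 77.7% of members were matched in both replicates and 13.8% were divergent. With the 10000 strongest regions these values were 3078, 38.1%, 18.6%, 55.9% and 9.13%. A window from 500 bp upstream to 200 bp downstream, which covers fewer bases by construction, gave 974 members, 24.2% of summits, 6.26% of genes, a median position of -148 bp, a median GC of 34.4% and CTGCGTC in 7.8%. With 1 TSS per gene, 34.1% of summits and 9.17% of genes were counted. A stricter overlap, of 50% or more of the member in place of 1 bp, left 61.3% matched in both replicates. In the 100 bp around the summit, CTGCGTC was held by 2.6%, over fewer bases. With regions matched in both replicates only, 42.2% of summits lay in promoters, 7.35% of genes were hit and the median GC was 34.4%. Leaving out either replicate gave 1551 to 1587 members, 38.5% to 39.4% of summits, 9.85% to 10.1% of genes, a median position of -185 to -161 bp and a median GC of 33.5% to 35.0%. Where no construction is named, the cause was not tested. Between 15 and 17 of the 29 gene lists were above the share of all genes in each of the settings that changed the number of regions, the replicates or the window, but only 9 lists were above it in every one of them. No paired analysis was possible because the series holds 1 group and no test. Depth is unknown, so whether weak members lie above the noise of a single library could not be judged from these lists.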

Other observations

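The word AGTGCGC, the word CTTGCGC and the word GCGCCAGC were picked after the strongest promoter sequences were seen, so their counts describe those regions and support nothing. At least 1 of them was held by 14.7% of the members of ranks 1 to 1000 (56 of 381, 11.3 to 18.7), 3.97% of ranks beyond 1000 up to 5000, 3.18% of autosomal promoter regions of lower rank and 4.18% of the windows at all autosomal promoters. AGTGCGC was held by 12 of the 83 members of ranks 1 to 162 (14.5%), CTTGCGC by 11 (13.3%) and GCGCCAGC by 4 (4.82%). In the same order, the second band gave 5.43%, 6.98% and 6.98%, and all promoter windows 2.46%, 1.36% and 0.708%. In members of ranks 1 to 1000, 28 of 41 occurrences of AGTGCGC within 510 bp of a summit lay within 85 bp of it (68.3%), as did 22 of 35 of CTTGCGC (62.9%) and 19 of 28 of GCGCCAGC (67.9%). For ranks beyond 1000 up to 5000 the values were 23.7%, 20% and 45.8%.

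All 3 words hold CG, and CG dinucleotides were more frequent in the strongest members as well. The median number per 340 bp was 18 in the 20 strongest members, 16 in ranks 1 to 162, the first band, 13 in the second band, and 9 to 10 in the bands below, with 10 at all autosomal promoters. The part of CG frequency in the word counts was not tested. Another word, AAGTGTA, also chosen after the sequences were seen, was held by 6 of the 20 strongest members, namely rpl-3, Y17G9B.5, cdc-48.1, rpl-15, rpl-35 and cox-5A. It was held by 8.43% of ranks 1 to 162 (7 of 83, 3.46 to 16.6), and those 7 include the 6 regions just named. It was held by 4.65% of the second band, 3.97% to 5.33% of the bands below and 4.46% of all members. Of all autosomal promoter windows, 5.54% held it.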
